A study of Mus musculus with 55 samples.

Results

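The 40 genes described here build, fold and insert proteins at the membrane of the endoplasmic reticulum (ER), and were followed in mouse prefrontal pyramidal neurons, cell by cell. They were picked by symbol from the 22800 gene symbols of the count table, and all 40 were present. The list spans mannose phosphate supply (3 genes), the oligosaccharyltransferase (7), disulfide isomerases (5), ER chaperones (4), the ER membrane protein complex or EMC (7), the translocon with its associated TRAP complex (8), the unfolded protein response (5) and Sgta, a co-chaperone of tail-anchored proteins. Pmm1, Ddost, Pdia3 and Emc3 were on it because they had been seen to differ between groups of these same cells, so their differences are a description and nothing is supported with them. Tmx1 and Sgta had also been named in earlier results of these cells, and their differences are likewise a description.

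Each sample was the cytosol of 1 neuron drawn through a patch pipette. The groups were 6 knockout D1 cells from Fmr1-/y mice, which lack the fragile X gene Fmr1, aged 31 or 32 days, 7 knockout D2 cells from Fmr1-/y mice aged 32 days, 15 wild-type D1 cells aged 28 to 34 days and 26 wild-type D2 cells aged 29 to 35 days. Wild-type stands here for the label of no knockout. D1 and D2 are names of dopamine receptor types, and the sources used here give neither the way cells were assigned to a kind nor the strain, the driver of any reporter or the animal of a cell. The label for the side of the sample splits the cells exactly as D1 and D2 do, so that kind and side cannot be told apart. Genotype and age can hardly be told apart either, since 1 knockout D1 cell shares an age with 3 wild-type D1 cells and the 7 knockout D2 cells share theirs with 2 wild-type D2 cells. With no animal named, each group counted as 1 sample: no test was made, and SDs describe the spread between these cells, not between animals.

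Proteins bound for membranes, synapses and secretion enter the ER through the Sec61 translocon or are set into its membrane by the EMC. There the oligosaccharyltransferase moves a preassembled sugar tree, whose mannose comes from mannose phosphates, onto asparagines of the growing chain. Calnexin and calreticulin hold the glycoprotein by its trimmed sugars while Pdia3 forms its disulfide bonds, and Hspa5 and Hsp90b1 fold other clients. When unfolded proteins pile up, the sensors Ern1 and Atf6 and the factors Xbp1, Atf4 and Ddit3 raise the output of many of these genes. Neurons rely on this route for receptors, channels and adhesion proteins.

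The best known control site of ER chaperone genes is the ER stress element, which reads CCAAT, 9 bases of any kind and CCACG, and is bound by Atf6 and the spliced form of Xbp1. It was searched on both strands in RefSeq windows that run from 250 bases before to 50 bases after each gene's start (GRCm38.p6); 35 of the 40 genes had a window. The element lay in 5 of those 35 genes (14.3%), namely Hspa5, Calr, Hsp90b1, Canx and Pdia6, against 37 of 27025 genes in all (0.137%). Since the element is known from ER chaperone genes and these are on the list, the higher share was set in advance and nothing is read from it. Hsp90b1 held 2 elements. They are shown because the 5 genes that carry one are followed as a group further on. Capitals mark the outer bases of the element, read along the strand of the gene; where it lies on the opposite strand it reads CGTGG, 9 bases and ATTGG.
Hspa5 (chr2:34772020-34772048, plus strand): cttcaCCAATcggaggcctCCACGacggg
Calr (chr8:84847070-84847098, minus strand): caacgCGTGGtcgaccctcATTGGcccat
Hsp90b1 (chr10:86705633-86705661, minus strand): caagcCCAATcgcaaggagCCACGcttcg
Hsp90b1 (chr10:86705528-86705556, minus strand): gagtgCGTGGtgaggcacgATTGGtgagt
Canx (chr11:50325795-50325823, minus strand): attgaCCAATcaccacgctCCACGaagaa
Pdia6 (chr12:17266486-17266514, plus strand): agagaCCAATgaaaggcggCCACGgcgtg
The elements began 65 bases before the RefSeq start in Hspa5, 162 in Calr, 212 and 107 in Hsp90b1, 145 in Canx and 98 in Pdia6. Among 93 other genes of the pathway with a window, 5 held the element, namely Alg12, Creld2, Dnajc3, Ero1b and Syvn1. A match is a description of the letters and not a measured binding site. Ostc, Emc2, Sec61a1, Ssr2 and Atf6 had no window in the table.

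Library totals ran from 260943 to 10673072 counts per cell. A read in at least 4000 genes, called gene-rich from here on, was found in 6 of 6 (D1) and 6 of 7 (D2) knockout cells and in 9 of 15 (D1) and 13 of 26 (D2) wild-type cells. Fmr1 was without reads in the 6 D1 and the 7 D2 knockout cells, and was read in 8 of the 15 D1 and 13 of the 26 D2 wild-type cells. The receptor genes were too sparse to check the labels of kind: Drd1, for the D1 receptor, was read in 0 of 6 (D1) and 3 of 7 (D2) knockout cells and in 4 of 15 (D1) and 2 of 26 (D2) wild-type cells, and Drd2, for the D2 receptor, in no cell. Markers of pyramidal neurons were read in every cell. Of markers of other cells, those of microglia were also read in every cell, and each of the 10 had reads in each group. Their sum was 0.453 to 2149 CPM (median 439) for knockout D1, 39.6 to 3482 CPM (median 249) for knockout D2, 0.319 to 10584 CPM (median 898) for wild-type D1 and 0.167 to 5971 CPM (median 588) for wild-type D2 cells. Astrocyte markers had median sums of 524 (D1) and 675 (D2) CPM for knockout and 959 (D1) and 834 (D2) CPM for wild-type cells, and oligodendrocyte markers 393 (D1) and 1062 (D2) CPM for knockout and 338 (D1) and 583 (D2) CPM for wild-type cells. The highest sums in a cell were 13004 CPM (astrocyte) and 13691 CPM (oligodendrocyte), both in wild-type D1 cells. Oligodendrocyte markers reached 11094 CPM in a knockout D2 cell, and the highest pyramidal sum was 8064 CPM, in a wild-type D2 cell. The highest group median of the interneuron sum was 44.1 CPM, in knockout D2 cells, and its highest value 832 CPM, in a wild-type D2 cell. The endothelial sum was at most 7.08 CPM in any cell. A pipette can also take up RNA of neighbouring cells, and the part of such RNA in the results was not tested.

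How many of the 40 genes were read in a cell followed how many genes were read there at all. The median knockout cell had reads of 27.5 (D1) or 30 (D2) of the 40 and the median wild-type cell of 20 (D1) or 23 (D2), with ranges of 24 to 34 in knockout D1, 17 to 36 in knockout D2, 6 to 36 in wild-type D1 and 6 to 40 in wild-type D2 cells. Across the 54 cells the number of ER genes read and the number of genes read had a Pearson correlation of 0.96 and a Spearman correlation of 0.92, given as a description because both counts come from the same libraries and depth. Within groups the Pearson values were 0.90 (6 D1) and 0.97 (7 D2) among knockout cells and 0.92 (15 D1) and 0.98 (26 D2) among wild-type cells. In the knockout D1 group 10 of the 40 genes had reads in every cell and in the knockout D2 group 8, and in neither wild-type group was any of them read in every cell. Every cell means 6 (D1) and 7 (D2) cells for knockout but 15 (D1) and 26 (D2) for wild-type, so these counts cannot be compared between genotypes. The share over all genes was not computed.

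**Figure D1:**
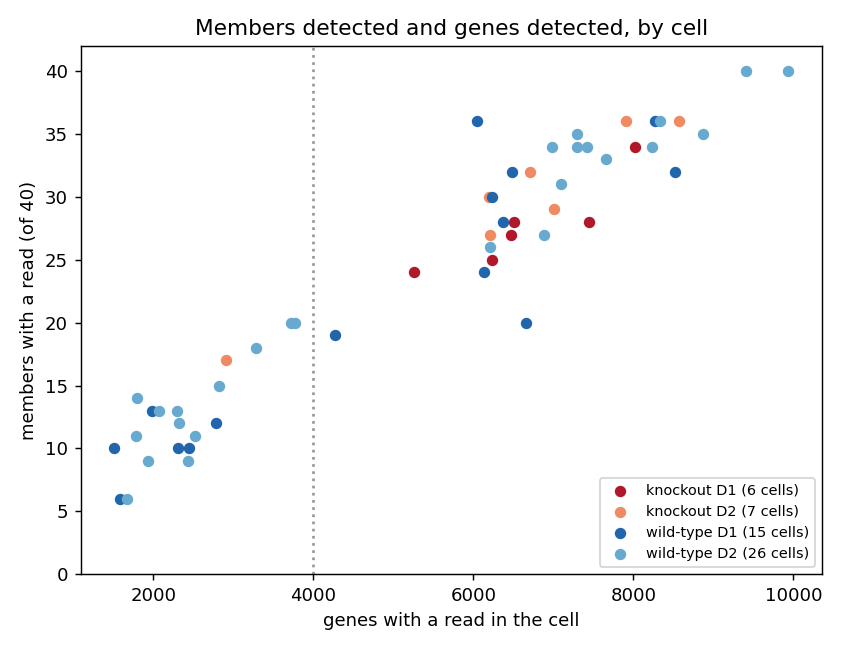
Each point is 1 cell, with the number of genes with a read on the horizontal axis and the number of the 40 ER genes with a read on the vertical axis; the dotted line marks 4000 genes. The 6 knockout D1 cells and 6 of the 7 knockout D2 cells lie right of the line, while wild-type cells lie on both sides, down to 6 ER genes read.

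Values are CPM, the counts of a gene scaled to a common total in each cell. Groups were compared by subtracting their means of log2(CPM + 1), each cell weighing the same, and a difference is called when it reaches 2 log2 units in either direction. A gene counted as measured with a mean of at least 1 CPM when 10% or more of the compared cells held a read, and all 40 were measured in each of the 4 comparisons. Because groups differ in how often any gene is read, each count of called ER genes stands beside the share called among all measured genes. Nothing is read from the counts, since 4 of the genes were listed for their differences and Tmx1 and Sgta were named in earlier results.

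Between knockout D1 and wild-type D1 cells, 11 of the 40 ER genes were called higher, near the background of 27.6% of 10792 measured genes, and 3 were called lower, where the background was 1.34%. The 11 were Emc2 (5.29 log2 units), Emc4 (3.69), Dad1 (3.53), Rpn1 (3.37), Xbp1 (2.72), Pmm1 (2.54), Emc6 (2.42), Atf4 (2.19), Sec62 (2.15), Ddit3 (2.12) and Rpn2 (2.00). The 3 lower ones were Pdia3 (-3.74), Emc3 (-3.50) and Ddost (-2.23), which are 3 of the 4 genes listed for their differences. The median difference over the 40 was 0.89, and over all measured genes 0.98. Centred on that median of all genes, 4 were higher and 7 lower, beside 12.5% and 7.82% of all measured genes, and with the authors' normalized values 8 were higher and 5 lower, beside 24.8% and 2.22%. The spread among the 40 was wide, from -3.74 to 5.29.

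Between knockout D2 and wild-type D2 cells, 6 of the 40 were called higher and 3 lower, beside 12.7% and 0.633% of 11222 measured genes. The higher ones were Dad1 (3.10 log2 units), Xbp1 (3.04), Sec61b (3.0), Ostc (2.56), Sec63 (2.37) and Hsp90b1 (2.17), and the lower ones Ddit3 (-2.56), Sgta (-2.15) and P4hb (-2.03). The median over the 40 was 0.54 and over all measured genes 0.56. With the median of all genes subtracted, 3 were higher and 6 lower, beside 5.96% and 2.65%, and with the authors' normalized values 6 were higher and 5 lower, beside 13.5% and 0.922%. Dad1 and Xbp1 were called higher in both kinds of neuron, Ddit3 was called higher in D1 and lower in D2 cells, and 20 of the 40 were called in neither.

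The kinds of neuron were also set against each other within a genotype. Between wild-type D1 and wild-type D2 cells none of the 40 was called higher and 2 were called lower, Pmm1 (-3.22) and Ddit3 (-2.36), beside 1.01% and 1.33% of 11059 measured genes; the median was -0.37 over the 40 and -0.14 over all. Without wild-type D1 cell 8 or cell 12 the count called was 4 or 5 in place of 2. Between knockout D1 and knockout D2 cells 8 were called higher and 3 lower, beside 15.2% and 6.8% of 10990 measured genes, with medians of 0.04 over the 40 and 0.29 over all. The higher ones were P4hb (4.61), Emc2 (2.88), Emc10 (2.58), Pdia6 (2.48), Ddit3 (2.32), Ssr2 (2.29), Atf4 (2.21) and Rpn1 (2.08), and the lower ones Sec61b (-4.26), Pdia3 (-3.35) and Emc3 (-3.25). Of these calls, that of Rpn1 was lost without any 1 of 8 cells, at 1.49 without knockout D2 cell 4, 5 or 6, 1.68 without knockout D1 cell 5 and 1.96 to 1.99 without knockout D1 cell 1, 2, 3 or 6. TMM scaling gave 7 higher and 5 lower between the knockout kinds, beside 13.7% and 8.16%. The authors' normalized values gave 6 and 5, beside 13.5% and 8.84%, and centring on the median of all genes 5 and 5, beside 11.6% and 9.91%. The comparisons share groups and are given side by side. In none of the 4 comparisons did the cells of the groups separate without overlap for any of the 40 genes; over all measured genes they did so for 3 between knockout D1 and wild-type D1 cells (0.0278%), for 13 between the knockout kinds (0.118%) and for 0 in the other comparisons (0%).

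**Figure D2:**
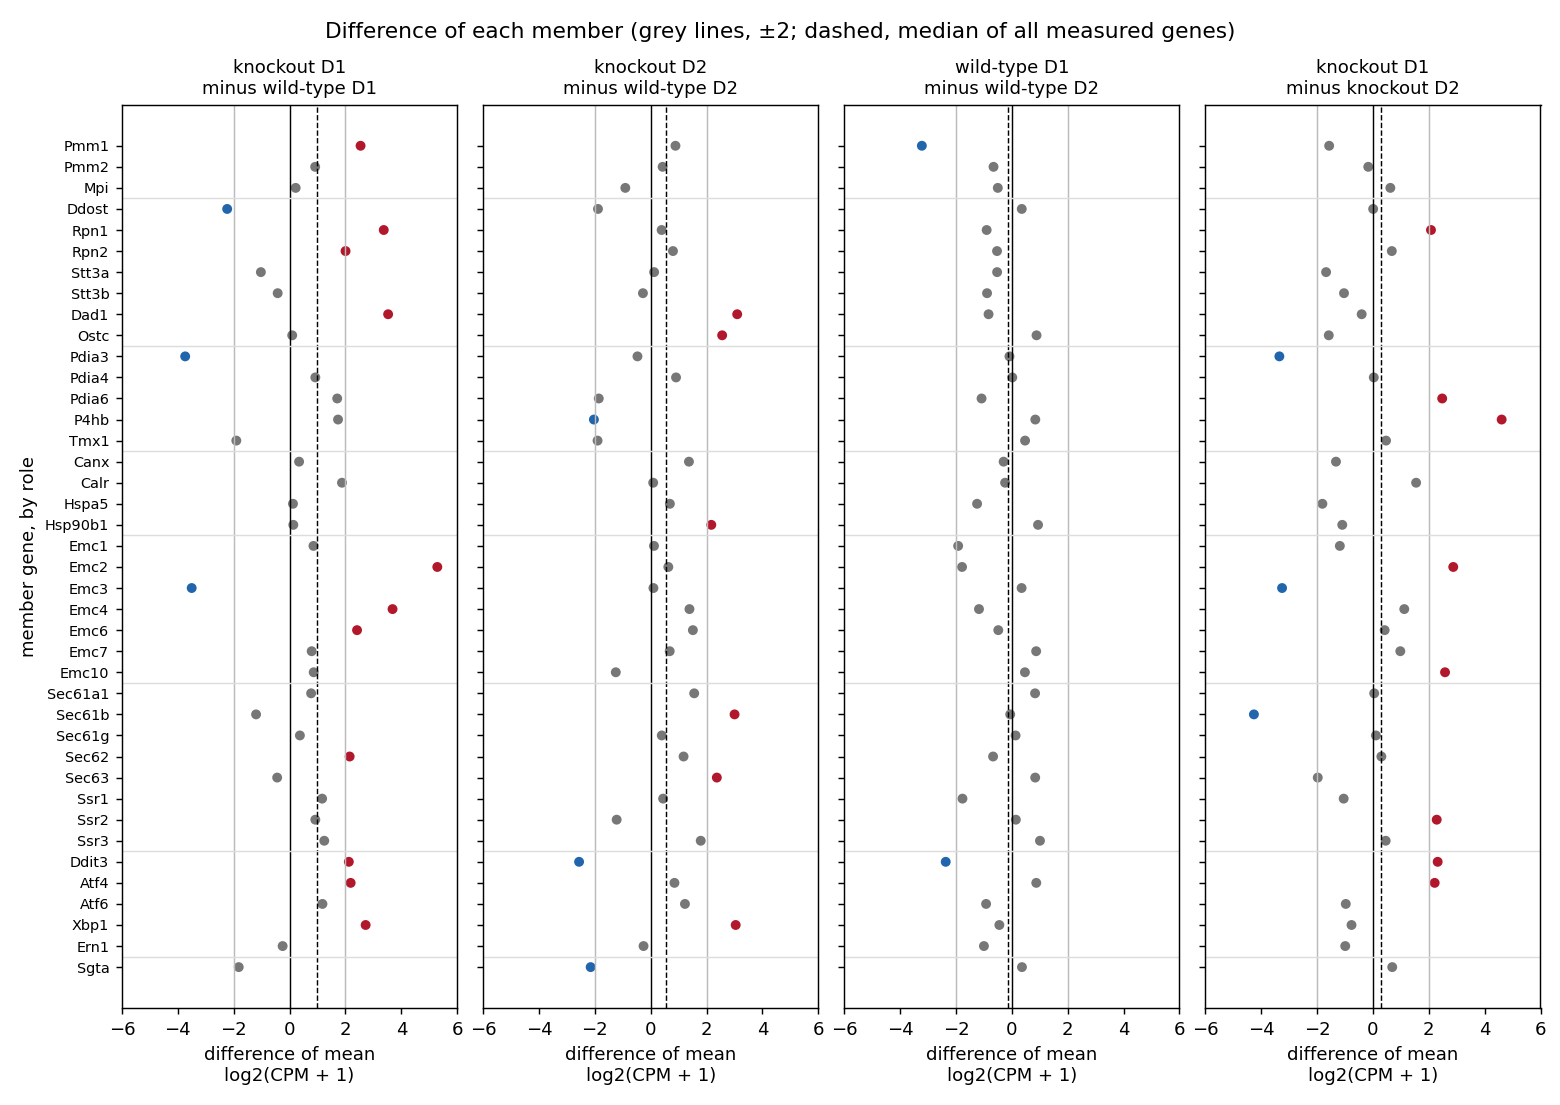
Points show, for each of the 40 genes by role, the difference of mean log2(CPM + 1) in the 4 comparisons; red and blue points lie at or beyond 2 and -2 log2 units (grey lines), and the dashed line is the median of all measured genes. In the knockout D1 panel Emc2 lies farthest right at 5.29 and Pdia3 farthest left at -3.74, with the dashed line at 0.98.

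The role groups are taken in the order of the route. Mannose phosphate supply comprises Mpi, which makes mannose 6-phosphate, and the phosphomannomutases Pmm1 and Pmm2, which turn it into mannose 1-phosphate. Pmm1 (chromosome 15, 81951108 to 81960930, GRCm38) was the highest of the 3 per exon length, at 73.6 CPM per exon kilobase averaged over the 4 groups, and Pmm2 the lowest at 3.79. Pmm1 had 0 to 351 CPM (median 81.5) in knockout D1 cells and 0 to 516 CPM (median 0.821) in wild-type D1 cells, with reads in 5 of the 6 knockout D1 cells and 8 of the 15 wild-type D1 cells. In D2 cells it had 37.8 to 668 CPM (median 190.5) in knockout D2 cells and 0 to 2058 CPM (median 232) in wild-type D2 cells, with reads in 7 of the 7 knockout D2 cells and 21 of the 26 wild-type D2 cells. Wild-type D1 cells were thus lowest in read cells and median, although all ranges overlapped. Its means were 129 ± 129 CPM in knockout D1 cells, 249 ± 239 CPM in knockout D2 cells, 96.2 ± 155 CPM in wild-type D1 cells and 371 ± 479 CPM in wild-type D2 cells (SD).

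At each of the 4 ages held by both wild-type kinds, mean Pmm1 was lower in D1 than in D2 cells, with differences of -3.62 log2 units at 29 days (4 and 6 cells), -1.61 at 30 days (3 and 7 cells), -1.38 at 31 days (3 and 3 cells) and -4.92 at 34 days (2 and 2 cells). These values come from the cells in which Pmm1 had been seen to differ, so they describe its difference and do not support it. In gene-rich cells the wild-type difference of Pmm1 was -1.57, and in summed counts -0.77, both short of 2. The knockout D1 difference was 2.54 in all cells, 0.40 in gene-rich cells and -0.71 in summed counts, and without knockout D1 cell 1 it stood at 2.00, just under the call. Mpi and Pmm2 were read in 2 to 9 cells of each group, with differences of -0.91 to 0.92 in the knockout comparisons. In summed counts the knockout D2 difference of Mpi was -3.81.

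The oligosaccharyltransferase attaches the sugar tree; Stt3a and Stt3b are its alternative catalytic subunits, and Ddost, Rpn1, Rpn2, Dad1 and Ostc are other subunits. Dad1, a small membrane subunit (chromosome 14, 54235479 to 54254104), had 47.3 to 719 CPM (median 129) in knockout D1 cells and 0 to 313 CPM (median 17.4) in wild-type D1 cells. It had 55.9 to 431 CPM (median 174) in knockout D2 cells and 0 to 1119 CPM (median 77.9) in wild-type D2 cells. Every knockout cell had reads of Dad1, against 8 of the 15 wild-type D1 cells and 15 of the 26 wild-type D2 cells, and the highest wild-type D2 cells lay above all knockout D2 cells. The called differences of 3.53 in D1 and 3.10 in D2 cells were 1.61 and 0.51 in gene-rich cells, and 1.44 and 0.06 in summed counts.

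Ddost (chromosome 4, 138304730 to 138312628) was among the genes listed for their differences. It had 0 to 389 CPM (median 0) in knockout D1 cells and 0 to 480.3 CPM (median 51.9) in wild-type D1 cells, with reads in 2 of the 6 knockout D1 cells and 10 of the 15 wild-type D1 cells. In D2 cells the values were 0 to 84.1 CPM (median 0.389) in knockout D2 cells and 0 to 2943 CPM (median 9.18) in wild-type D2 cells, with reads in 4 of the 7 knockout D2 cells and 15 of the 26 wild-type D2 cells. Most knockout cells of both kinds were at or near 0, yet knockout D1 cell 5 was as high as the upper wild-type D1 cells. Without that cell the D1 difference was -3.53 in place of -2.23; without any 1 of knockout D1 cells 1, 3, 4 and 6 it was -1.80, and without any 1 of wild-type D1 cells 2, 4, 7, 8 and 12 it also missed the call, with -1.91 at the farthest. The D2 difference was -1.89, and in gene-rich cells the knockout differences were -4.85 in D1 and -2.70 in D2 cells.

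Rpn1 and Rpn2, the ribophorins, which hold the enzyme at the ribosome and translocon, were called higher in knockout D1 cells, at 3.37 and 2.00. Rpn1 was read in 6 of the 6 knockout D1 cells and 6 of the 15 wild-type D1 cells, with means of 79.5 ± 63.3 CPM in knockout D1 cells and 75.7 ± 178 CPM in wild-type D1 cells (SD), and its ratio of summed counts was -0.21. Rpn2 stood at the line. Without knockout D1 cell 5 it was 0.86, without cell 4 it was 1.37 and without cell 2 it was 1.73, and leaving out any 1 of 11 wild-type D1 cells (1 to 6, 9 to 11, 13 or 14) gave 1.86 to 1.99. At the shared age, with 1 knockout D1 and 3 wild-type D1 cells, it was -1.03. Ostc, a subunit of the enzyme form that works beside the translocon, was called higher in knockout D2 cells at 2.56 and stood at 1.92 without knockout D2 cell 5. In gene-rich cells this difference was 0.51 and in summed counts 0.77. The catalytic genes Stt3a and Stt3b were called in no comparison over all cells, with differences of -1.67 to 0.12. In summed counts, however, Stt3a was at -5.01 between knockout D1 and wild-type D1 cells and at -3.20 between the knockout kinds. In gene-rich cells Stt3b was at -2.13 (D1) and -2.54 (D2) in the knockout comparisons and at -2.19 between the wild-type kinds. Stt3a was there at -2.01 between the knockout kinds. Their other differences in these measures were short of 2. Stt3a was the lowest of the 7 per exon length (2.29 CPM per exon kilobase) and Ddost the highest (55.5).

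Of the disulfide isomerases, which make and reshuffle disulfide bonds, Pdia3, also known as ERp57, works with calnexin and calreticulin. It was listed for its difference. Pdia3 (chromosome 2, 121413775 to 121438687) had 0 to 15.6 CPM (median 0) in knockout D1 cells and 0 to 1247 CPM (median 36.4) in wild-type D1 cells. A single knockout D1 cell had reads, 60 in all, against 9 of the 15 wild-type D1 cells. In D2 cells it had 0 to 197 CPM (median 11.6) in knockout D2 cells and 0 to 1111 CPM (median 41.1) in wild-type D2 cells, with reads in 5 of the 7 knockout D2 cells and 18 of the 26 wild-type D2 cells. The knockout D1 cells were thus low beside each other group, within the range of cells without a read that all groups held. The difference from wild-type D1 cells was -3.74 and that from knockout D2 cells -3.35. In gene-rich cells they were -6.52 and -4.02, and in summed counts -6.75 and -3.57; none of the left-out cells ended either call. Between knockout and wild-type D2 cells the difference was -0.47, and -2.25 in gene-rich cells.

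P4hb (chromosome 11, 120560298 to 120573253), the classical protein disulfide isomerase and also a subunit of the collagen prolyl hydroxylase, set the knockout kinds apart the other way. It had 0 to 283 CPM (median 77.6) in knockout D1 cells, 0 to 4.65 CPM (median 0) in knockout D2 cells, 0 to 727 CPM (median 0) in wild-type D1 cells and 0 to 669.6 CPM (median 0) in wild-type D2 cells. The 7 knockout D2 cells reached at most 4.65 CPM, whereas 5 of 6 knockout D1 cells had reads and each of those lay above the knockout D2 cells. The difference between knockout D1 and knockout D2 cells was 4.61, 4.49 in gene-rich cells and 5.34 in summed counts, and it was 4.05 to 5.68 with any 1 cell left out. The difference between knockout D2 and wild-type D2 cells was -2.03. In gene-rich cells it was -4.17; in all cells, leaving out any 1 of 15 cells (knockout D2 cells 3 to 7 or wild-type D2 cells 3, 4, 6, 7, 12, 14, 21 and 24 to 26) ended the call, with -1.77 at the farthest.

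Tmx1, a membrane-bound relative, was read in 1 of the 6 knockout D1 cells, 2 of the 7 knockout D2 cells, 6 of the 15 wild-type D1 cells and 13 of the 26 wild-type D2 cells. It had 0 to 171 CPM (median 0) in knockout D1 cells, 0 to 18.7 CPM (median 0) in knockout D2 cells, 0 to 1024 CPM (median 0) in wild-type D1 cells and 0 to 1069 CPM (median 0.584) in wild-type D2 cells. The knockout cells were mostly at 0, and so were 9 of the 15 D1 and 13 of the 26 D2 wild-type cells. The differences of -1.91 in D1 and -1.90 in D2 cells were short of the call, and were -2.89 and -2.54 in gene-rich cells. Pdia6, highest of the 5 per exon length at 50.4 CPM per exon kilobase, was read in 5 of the 6 knockout D1 cells and 4 of the 7 knockout D2 cells, and differed by 2.48 between them; without knockout D1 cell 1, 5 or 6 this was 1.87, 1.82 or 1.91, and without knockout D2 cell 2, 4 or 5 it was 1.97. Pdia4 was not called in any comparison.

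The ER chaperones fold clients in the lumen. Hspa5, also known as BiP, the main Hsp70 of the ER, was the highest of the 4 per exon length at 99.9 CPM per exon kilobase and Canx, calnexin, the lowest at 54.5. Canx, Calr and Hspa5 had reads in all 6 knockout D1 and all 7 knockout D2 cells. Hsp90b1, the ER member of the Hsp90 family (chromosome 10, 86690209 to 86705509), had 0 to 505 CPM (median 229.7) in knockout D1 cells, 81.4 to 655 CPM (median 144) in knockout D2 cells, 0 to 1305 CPM (median 378) in wild-type D1 cells and 0 to 4051 CPM (median 169) in wild-type D2 cells. The upper wild-type cells lay above all knockout cells, while more of the wild-type D2 cells had no read. Its knockout D2 difference of 2.17 was the only call in the group. Leaving out knockout D2 cell 3 or 5 gave 1.98 or 1.88, leaving out wild-type D2 cell 1, 8, 10, 16, 19, 22 or 25 gave 1.95 to 1.97, and in gene-rich cells the value was -1.29 and in summed counts -0.65, with the opposite sign. Of its 4032 exon bases, 217 are shared with other genes on the same strand and 415 with a gene on the opposite strand.

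The EMC sets membrane proteins with weakly hydrophobic or terminal segments into the ER membrane; Emc3 and Emc6 form its membrane core, Emc2 its cytosolic side. Emc3 (chromosome 6, 113514874 to 113531652), listed for its difference, was without reads in all 6 knockout D1 cells, which leaves room for reads in up to 45.9% of such cells (exact 95% interval that takes the 6 cells as independent draws, which cells of unnamed animals may not be). It had 0 to 224 CPM (median 6.15) in knockout D2 cells, 0 to 3056 CPM (median 1.7) in wild-type D1 cells and 0 to 356 CPM (median 2.28) in wild-type D2 cells, with reads in 5 of the 7 knockout D2 cells, 8 of the 15 wild-type D1 cells and 16 of the 26 wild-type D2 cells. Cells without a read were also common in those 3 groups, so that the knockout D1 cells lay at their lower end. In summed counts Emc3 was at least 1870-fold lower in knockout D1 than in wild-type D1 cells (174 CPM), against a floor of 3 counts over all knockout D1 cells, and at least 1182-fold lower without wild-type D1 cell 9, the highest at 3056 CPM. Against knockout D2 cells (52.2 CPM) it was at least 561-fold lower, and at least 270-fold lower without knockout D2 cell 1. These bounds hold only for the summed counts of these cells and cover counting error alone. They do not bound the fold in other knockout D1 cells, of which up to 45.9% may hold reads. The differences of mean log2(CPM + 1) were -3.50 and -3.25, and in gene-rich cells -4.23 and -3.79. No left-out cell ended either call.

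Emc2 (chromosome 15, 43477229 to 43527763) had its highest group median in knockout D1 cells, the group in which no cell had reads of Emc3. It had 57.7 to 577 CPM (median 326) in knockout D1 cells and 0 to 275 CPM (median 0) in wild-type D1 cells, with reads in 6 of the 6 knockout D1 cells and 6 of the 15 wild-type D1 cells. It had 0 to 343 CPM (median 112) in knockout D2 cells and 0 to 1878 CPM (median 30.1) in wild-type D2 cells. The knockout D1 cells all held reads and 4 of them lay above the highest wild-type D1 cell, while 9 wild-type D1 cells had no read. The D1 difference of 5.29 was 3.70 in gene-rich cells and 2.18 in summed counts, and 5.03 to 5.69 with any 1 cell left out. The D2 difference was 0.63. Emc4 had 40.7 to 229 CPM (median 147) in knockout D1 cells and 0 to 244 CPM (median 0) in wild-type D1 cells; its D1 difference of 3.69 was 1.53 in gene-rich cells and 0.33 in summed counts. In D2 cells Emc4 had 0 to 437 CPM (median 272) in knockout D2 cells and 0 to 727 CPM (median 81.1) in wild-type D2 cells, a difference of 1.39, and in gene-rich cells -2.13. Emc6 was called higher in knockout D1 cells at 2.42 and stood at 1.63 without knockout D1 cell 3, at 1.33 in gene-rich cells and at 0.95 in summed counts.

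The other EMC genes, Emc1, Emc7 and Emc10, were called in neither knockout comparison over all cells. In gene-rich D2 cells the knockout differences of Emc1 and Emc10 were -2.35 and -3.02, and in summed counts -2.01 and -2.14. Emc10 differed by 2.58 between knockout D1 and knockout D2 cells, with reads in 5 of the 6 knockout D1 cells and 6 of the 7 knockout D2 cells. In gene-rich wild-type cells Emc1 differed by -3.91 and Emc7 by 2.69 between D1 and D2, where the differences over all cells were -1.92 and 0.87. Emc1 shares 1956 of its 6683 exon bases with a transcript on the opposite strand, and the sources used here do not say whether counting used strand. Per exon length Emc4 was the highest of the 7, at 137 CPM per exon kilobase, and Emc1 the lowest at 8.41.

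**Figure D3:**
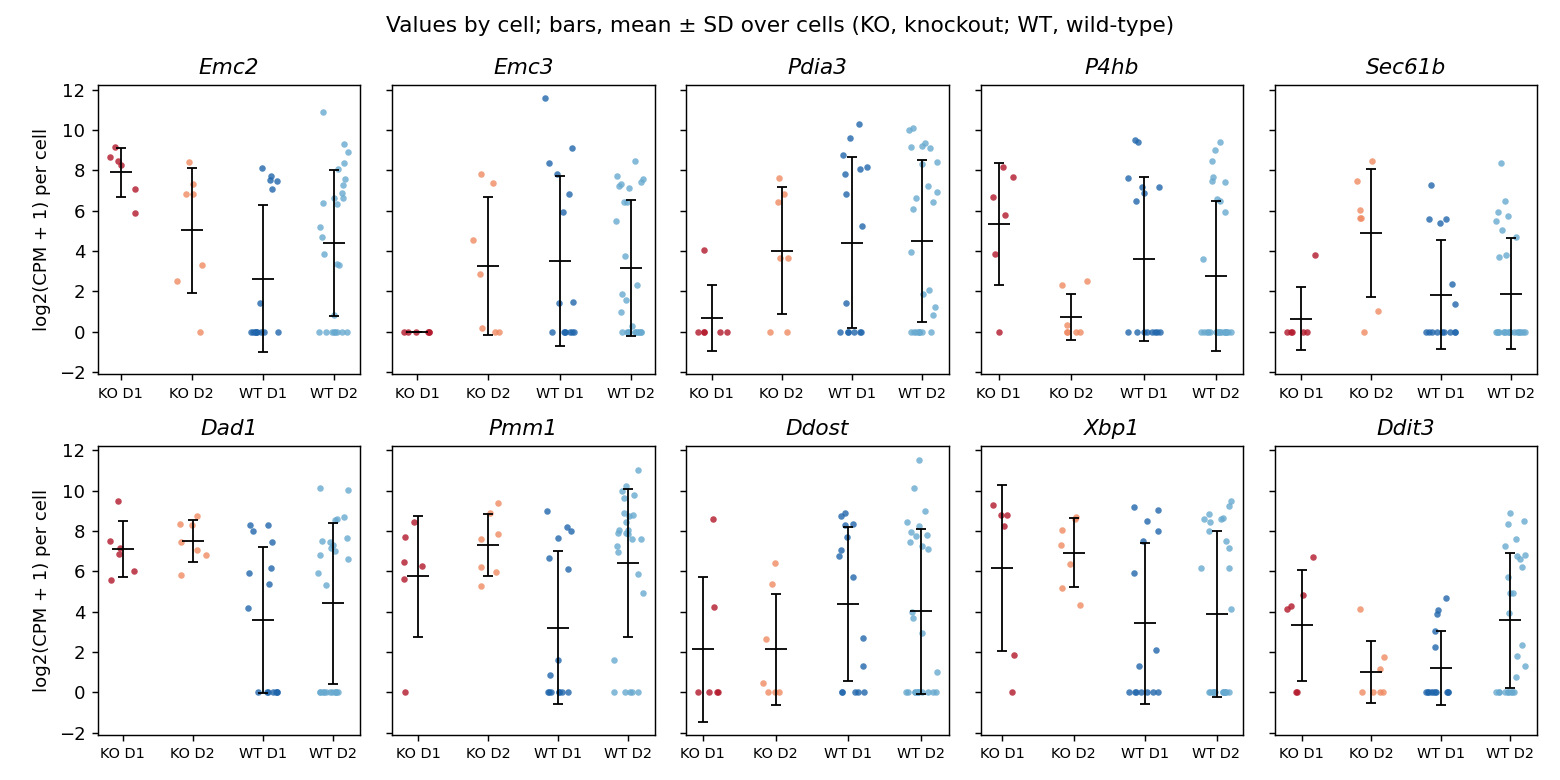
Points are single cells in the 4 groups, on the log2(CPM + 1) scale, for 10 of the genes described; bars give the mean and SD over cells. Emc3 lies at 0 in the 6 knockout D1 cells, where every cell has reads of Emc2, and P4hb is low in the 7 knockout D2 cells.

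The translocon is the channel through which chains enter the ER; Sec61a1 is its pore, Sec61b and Sec61g are its small subunits, Sec62 and Sec63 serve entry after synthesis, and Ssr1 to Ssr3 belong to the TRAP complex. Sec61b (chromosome 4, 47474658 to 47483242) had 0 to 13.2 CPM (median 0) in knockout D1 cells, 0 to 357 CPM (median 48.7) in knockout D2 cells, 0 to 151 CPM (median 0) in wild-type D1 cells and 0 to 322 CPM (median 0) in wild-type D2 cells. It was read in 1 of the 6 knockout D1 cells, 6 of the 7 knockout D2 cells, 6 of the 15 wild-type D1 cells and 9 of the 26 wild-type D2 cells. Knockout D2 cells were the group most often read and knockout D1 cells the least. The difference between knockout D1 and knockout D2 cells was -4.26, -5.07 in gene-rich cells and -4.65 in summed counts, and that between knockout D2 and wild-type D2 cells was 3.0, 2.57 and 2.34. No left-out cell ended either call. Near-identical copies cover up to 84% of a Sec61b transcript, so its reads are uncertain in how they were shared out. The same holds for Sec61g (80%). Matches cover up to 74.1% of an Ssr2 transcript, so its reads are uncertain too. The Ssr2 matches include Gm10704, which overlaps it on the opposite strand, and the part that is a copy elsewhere was not told apart.

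Sec63 was called higher in knockout D2 cells at 2.37, and stood at 1.96 without knockout D2 cell 1 or 7 and at 0.37 in summed counts. Sec62 was called higher in knockout D1 cells at 2.15, and was at 1.04 in gene-rich cells and 1.24 in summed counts. Leaving out knockout D1 cell 3, 5 or 6 gave 1.78, 1.84 or 1.99, and leaving out wild-type D1 cell 6, 9, 10 or 14 gave 1.80 to 1.87. Ssr2 differed by 2.29 between knockout D1 and knockout D2 cells, and by 1.86 to 1.94 without knockout D1 cell 2 or 6 or knockout D2 cell 6 or 7. Ssr3 had 0 to 180.2 CPM (median 24.6) in knockout D1 cells, 0 to 96.7 CPM (median 16.3) in knockout D2 cells, 0 to 348 CPM (median 2.65) in wild-type D1 cells and 0 to 835 CPM (median 0.193) in wild-type D2 cells. Its groups overlapped throughout, and its knockout differences of 1.24 in D1 and 1.79 in D2 cells were short of the call. Its wild-type difference was 1.01. Its mean was higher in D1 than in D2 cells at each of the 4 shared ages, as also for Emc7 and Sec61a1. Pmm1 alone was lower in D1 cells at each of them. The Ssr3 difference was only 0.03 at 29 days, and at 34 days it came from 2 cells of each kind. The share of all genes with the same sign at these ages was not computed, so nothing is read from this order.

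Of the unfolded protein response genes, Xbp1 encodes a factor that Ern1 activates by splicing its messenger, Atf4 a factor made when translation is held back, and Ddit3, or CHOP, a factor of the late response. Xbp1 (chromosome 11, 5520659 to 5525893) had 0 to 632 CPM (median 371) in knockout D1 cells and 0 to 585 CPM (median 1.5) in wild-type D1 cells, and 18.8 to 407 CPM (median 158) in knockout D2 cells and 0 to 723 CPM (median 8.39) in wild-type D2 cells. Nearly all knockout cells had reads, 5 of the 6 knockout D1 cells and 7 of the 7 knockout D2 cells, against 8 of the 15 wild-type D1 cells and 13 of the 26 wild-type D2 cells, while the highest wild-type D2 cells exceeded the highest knockout D2 cell. The called differences of 2.72 in D1 and 3.04 in D2 cells were 0.43 and -0.45 in gene-rich cells and 1.21 and 0.03 in summed counts. The counts do not tell the spliced form of the messenger from the unspliced one.

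Ddit3 (chromosome 10, 127290774 to 127296288) had 0 to 104 CPM (median 17.4) in knockout D1 cells, 0 to 16.5 CPM (median 0) in knockout D2 cells, 0 to 24.6 CPM (median 0) in wild-type D1 cells and 0 to 467 CPM (median 9.22) in wild-type D2 cells. Reads were found in 4 of the 6 knockout D1 cells, 3 of the 7 knockout D2 cells, 5 of the 15 wild-type D1 cells and 17 of the 26 wild-type D2 cells. The higher groups were knockout D1 and wild-type D2, and the lower ones knockout D2 and wild-type D1, so the order of the kinds turned round between the genotypes. Knockout minus wild-type, it stood at 2.12 in the D1 kind and at -2.56 in the D2 kind, and in gene-rich cells 1.32 and -3.86. In D1 cells the call was lost without knockout D1 cell 1, 2, 4 or 6 (1.96, 1.93, 1.82 and 1.44), and the 1 knockout D1 cell of 31 days lay 2.67 log2 units below the mean of the 3 wild-type D1 cells of that age. The D1 minus D2 difference was 2.32 in knockout cells (1.64 without knockout D1 cell 6) and -2.36 in wild-type cells. Whether the knockout differences of the kinds differ was not tested. Ddit3 shares 105 of its 1713 exon bases with another annotated gene on the same strand and 81 with genes on the opposite one.

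Atf4 was called higher in knockout D1 cells at 2.19 beside a ratio of summed counts of -0.38, and was short of the call, at 1.84 to 1.99, without knockout D1 cell 1 or wild-type D1 cell 3, 4, 9, 11 or 14. Between knockout D1 and knockout D2 cells it differed by 2.21, and by 1.40 and 1.43 without knockout D2 cell 4 and cell 6, by 1.91 without knockout D2 cell 1 and by 1.98 without knockout D1 cell 1; in summed counts it was -1.05, and its sign was also turned in the ratio of mean CPM. The sensors Ern1 and Atf6 were not called in any comparison over all cells. Ern1 was at -2.44 between the wild-type kinds in gene-rich cells and at -2.15 between the knockout kinds in summed counts, while Atf6 stayed short of 2 in both measures. Ern1 was the lowest of the 5 per exon length, at 1.37 CPM per exon kilobase, where Atf4 stood highest at 66.6.

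Sgta (chromosome 10, 81044075 to 81060181) binds tail-anchored proteins in the cytosol before they are handed to the ER. It had 0 to 368 CPM (median 61.2) in knockout D1 cells and 0 to 1874 CPM (median 201) in wild-type D1 cells, and 0 to 282 CPM (median 0) in knockout D2 cells and 0 to 2429.7 CPM (median 71.3) in wild-type D2 cells. Reads were found in 5 of the 6 knockout D1 cells, 3 of the 7 knockout D2 cells, 12 of the 15 wild-type D1 cells and 22 of the 26 wild-type D2 cells. The knockout groups lay below the wild-type groups in median and in highest value, with overlap. The differences were -1.82 in D1 and -2.15 in D2 cells, -4.15 and -3.12 in gene-rich cells, and -1.97 and -1.26 in summed counts. The D2 call was lost, at -1.59, without any 1 of knockout D2 cells 1, 2, 5 and 7 and at -1.98 to -1.92 without wild-type D2 cell 2, 8 or 19.

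Since more genes were read in the median knockout cell, 3 further measures were set beside the differences. The 40 genes together took 0.425% (D1) and 0.398% (D2) of the summed counts of knockout cells, against 0.548% (D1) and 0.627% (D2) for wild-type cells. Per cell the share was 0.235% to 0.550% (median 0.438%) for knockout D1, 0.218% to 0.513% (median 0.362%) for knockout D2, 0.0143% to 1.23% (median 0.424%) for wild-type D1 and 0.103% to 1.63% (median 0.584%) for wild-type D2 cells. The knockout cells thus lay within the wider wild-type range. In gene-rich cells the median knockout difference over the 40 was -0.28 in D1, where that of all measured genes was 0.14, and -1.22 in D2, where it was -0.39. In the ratio of summed counts the medians were -0.40 and -1.04 over the 40, and -0.04 and -0.51 over all. The directions of the calls moved with the measure. In gene-rich cells 2 of the 40 were called higher and 8 lower in D1, beside 11.6% and 7.67% of all measured genes, and 1 higher and 12 lower in D2, beside 4.01% and 11.2%. In summed counts 2 were higher and 5 lower in D1, beside 11.3% and 13.1%, and 1 higher and 9 lower in D2, beside 4.6% and 19.5%. The sign of the median over the 40 likewise depended on the measure: it was above 0 over all cells and below 0 in gene-rich cells and in summed counts. The part of detection in these differences was not tested beyond these values.

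**Figure D4:**
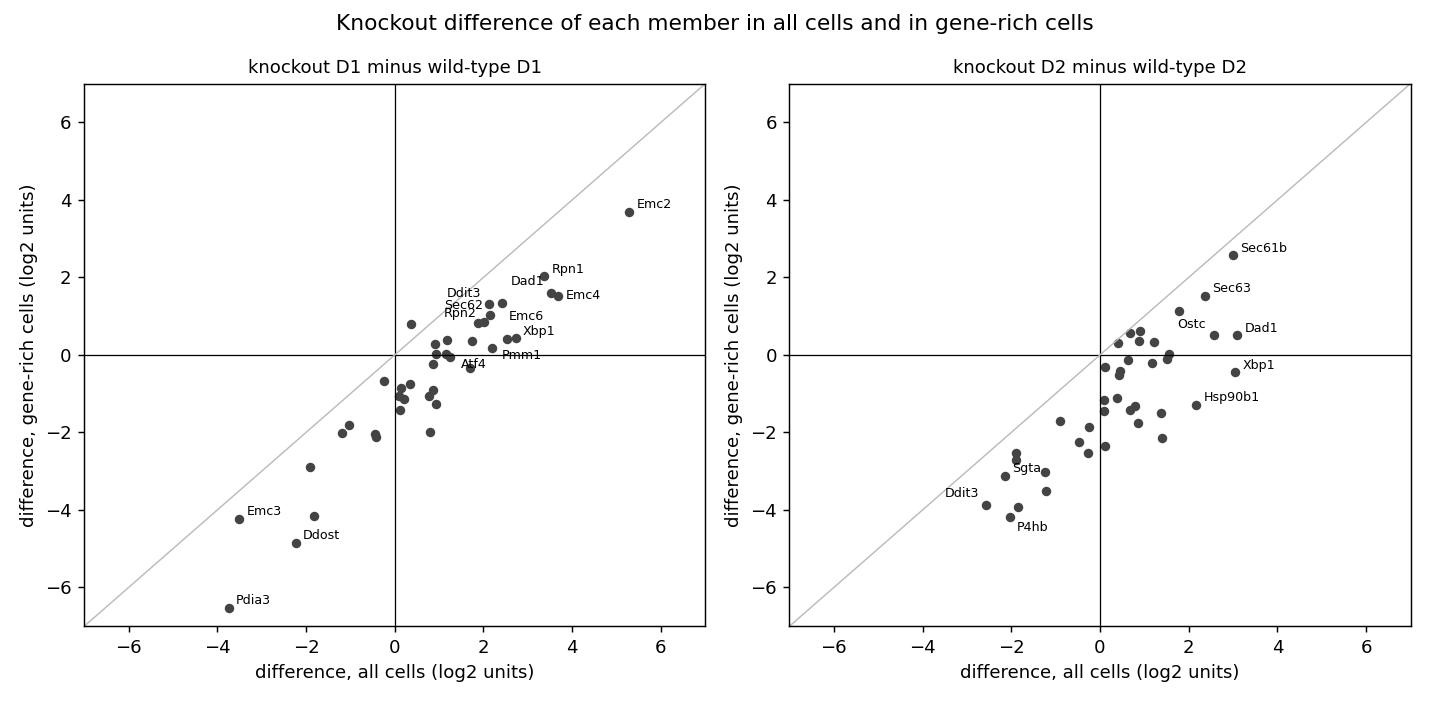
Each point is 1 of the 40 genes, with its knockout difference over all cells on the horizontal axis and over gene-rich cells on the vertical axis, in log2 units; genes called over all cells are named and the grey line marks equal values. All points but 1 (in D1 cells) lie below the line, and Emc2 (3.70), Emc3 (-4.23) and Pdia3 (-6.52) lie far from 0 in gene-rich D1 cells too.

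The 5 genes with an ER stress element, shown above, were summed in each cell. Their sum averaged 873 ± 380.4 CPM (D1) and 931 ± 516 CPM (D2) over knockout cells, against 1836 ± 1733 CPM (D1) and 1936 ± 2115 CPM (D2) over wild-type cells (SD over cells). The medians were 727 (D1) and 809 (D2) CPM for knockout and 1272 (D1) and 1335 (D2) CPM for wild-type cells, and the knockout ranges lay inside the wild-type ones. Over all cells the knockout differences of these 5 had a median of 0.34 in D1 and 0.69 in D2 cells, while the 30 genes with a window but no element had 0.89 in D1 and 0.41 in D2 cells. Between the wild-type kinds the medians over all cells were -0.29 for the 5 and -0.46 for the 30. In D2 cells and between the wild-type kinds, the order of the 5 and the 30 thus turned round between all cells and gene-rich cells. In gene-rich cells their knockout differences were -1.43 to 0.83 (median -0.75) in D1 and -3.93 to -1.29 (median -1.45) in D2 cells, and the 30 without the element had medians of -0.0043 and -1.14. The wild-type D1 minus D2 differences in gene-rich cells were -2.12 to -1.24 over the 5 genes (median -1.63) and had a median of -0.51 over the 30.

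How far the 40 genes moved together from cell to cell was described in the 34 gene-rich cells, after the mean of each group had been subtracted. Over the 780 pairs the median Spearman correlation was 0.097, with values from -0.51 to 0.70. The ER chaperones had a median of 0.36 over 6 pairs, the disulfide isomerases 0.22 over 10, the oligosaccharyltransferase 0.17 over 21, and the EMC -0.06 over 21. The closest pair was Ddost with Rpn1 (0.70), both subunits of the oligosaccharyltransferase, followed by Rpn1 with Sec62 (0.64) and with Ostc (0.63) and by Calr with Hsp90b1 (0.63). The 10 pairs among the 5 genes with an element had a median of 0.43, from -0.06 (Canx with Pdia6) to 0.63. The 435 pairs among genes without it had a median of 0.085, and the 150 pairs of a gene with and a gene without it 0.12. The ER chaperones all carry the element, so their 6 pairs are among the 10 and are not a second observation. Whether the element or the level of the genes has a part in these values was not tested. The cells share libraries, depth and group sizes, some genes share a cell's total, and single-cell counts are sparse, so that these values are a description of 34 libraries.

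**Figure D5:**
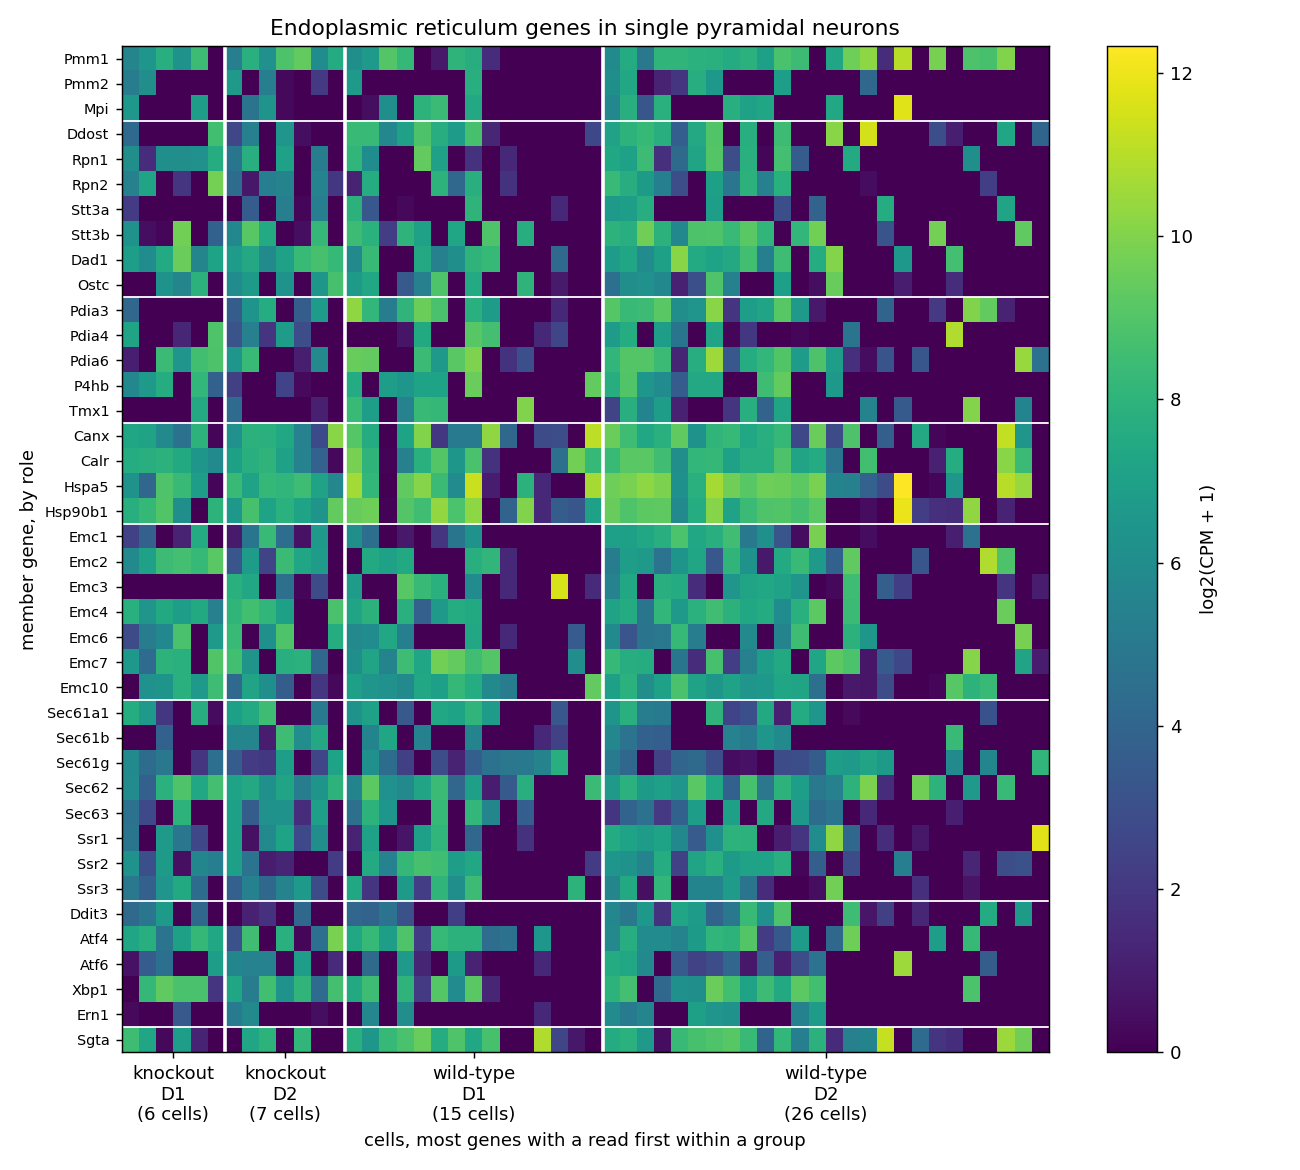
The colour gives log2(CPM + 1) of each of the 40 genes, by role, in each of the 54 cells, with the cell of most genes read at the left of its group. Dark cells have no read; the row of Emc3 is dark across the 6 knockout D1 cells, and the right part of both wild-type groups is dark for most genes.

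Genes of the same route outside the list were taken as a set of 122 symbols by role, of which 114 were in the table. In knockout D1 against wild-type D1 cells, 24 of 106 measured were called higher and 2 lower (against 27.6% and 1.34% of all measured genes), and in knockout D2 against wild-type D2 cells 19 of 108 were called higher and 1 lower (against 12.7% and 0.633% of all), with medians of 1.02 and 0.78 beside 0.98 and 0.56 over all measured genes. Between wild-type kinds 2 of 108 were called higher and none lower (against 1.01% and 1.33% of all), and between knockout kinds 18 of 107 were called higher and 10 lower (against 15.2% and 6.8% of all). Among other translocation genes, Sec61a2, a second gene for the pore, differed by 5.57 between knockout D1 and wild-type D1 cells (reads in 6 of 6 and 8 of 15 cells) and Ssr4, the remaining TRAP subunit, by 4.04 (6 of 6 and 8 of 15). Among other oligosaccharyltransferase subunits, Tmem258 was called higher in both kinds of knockout cells (2.28 and 3.86), while Krtcap2 was called lower in knockout D1 cells (-2.86, reads in 1 of 6 and 8 of 15 cells). In knockout D2 against wild-type D2 cells the highest of the set were Srp19 of the signal recognition particle (3.95), Erp29, a thioredoxin-fold protein of the lumen (3.86), and Tmem258. The lone called-lower genes of the knockout comparisons beside Krtcap2 were Alg3, a mannosyltransferase of the sugar tree, in D1 cells (-2.24, reads in 0 of 6 and 5 of 15 cells) and Edem2, which trims mannose from misfolded glycoproteins, in D2 cells (-2.49, reads in 0 of 7 and 9 of 26 cells). These genes were named after their values were seen.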

How the data were processed

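Nextera XT libraries of the total RNA in the cytosol of single mouse neurons were sequenced, per the labels' protocols. The submitters' processing notes name Trimmomatic, STAR, featureCounts and the GRCm38 build; no source used here gives their versions, settings or use of strand. The authors deposited raw read counts of 22800 gene symbols and of 22880 Ensembl identifiers, which held the same values for the 40 genes, and a normalized signal table of 14067 symbols, in which each cell's counts are multiplied by 1 factor (0.373 to 51.5), as tested on the deposited values; the choice of the factors is not stated. Another 2 columns of each file matched no sample label and were not used.

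Counts of each cell were scaled to CPM by its total over genes. Cells were grouped by the labels for genotype, kind and quality control, and 1 further knockout D1 cell, which had failed that control, was left out; it had reads in 995 genes and in 4 of the 40. The pseudocount was 1 CPM. Since no label names an animal and each group counts as 1 sample, no count model was fitted and no p-value computed. The procedure was run on simulated data in which each gene was detected at the same rate in both groups. That run therefore cannot speak to unequal detection between groups. A fold against a group without reads used a floor of 3 counts over its summed total; floors and exact Clopper-Pearson intervals cover counting error only, since amplified reads without molecular identifiers are not independent molecules. Medians over the 40 genes are the same with Emc3, the gene without reads in a group, placed at its bound, since it lies below the median either way.

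The 40 genes, role groups, other pathway genes, markers, call threshold and alternatives were chosen with earlier results of these data known. Described with values were Pmm1, Ddost, Pdia3, Emc3, Tmx1, Sgta and, per comparison and direction, the 2 largest differences among genes with a mean of at least 10 CPM in 1 group and a read in at least 33.3% of its cells, 15 genes in all; others are given by count or range, and their values were seen before they were named. Alternatives were TMM scaling (edgeR), the authors' normalized signal values, totals without mitochondrial and ribosomal RNA genes, pseudocounts of 0.1 and 10 CPM, no filter, gene-rich cells, shared ages, ratios of mean CPM and of summed counts, the Ensembl table, centring on the median of all genes, and leaving out each cell.

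Positions, merged exon lengths, overlaps and near copies came from GENCODE vM21 (GRCm38), in which all 40 symbols were found, and promoter windows from RefSeq (GRCm38.p6). The printed stretches were limited to 29 bases. Protein sequences were not analysed here. Python 3.11.15 with numpy 2.4.6, pandas 2.3.3, scipy 1.17.1 and matplotlib 3.10.9 was used, and edgeR 4.0.16 in R 4.3.3.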

Additional observations from a re-analysis of the deposited data

Results flagged for a closer look

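Each of the 15 genes described with values was scanned in the 2 knockout groups, 30 scans in all, for a single cell that stands apart from the others of its group; 7 were flagged. Chance flags about 1 in 20 groups of continuous values, a rate that does not hold where most cells have no read: a lone cell with reads is then always flagged, so the 7 are not set against it. On the log2(CPM + 1) scale, Pmm1 was at 0 in knockout D1 cell 5, under the other 5 cells. Pdia3 was at 4.05 in knockout D1 cell 2, Tmx1 at 7.43 in knockout D1 cell 1 and Sec61b at 3.82 in knockout D1 cell 6, and in each case the other 5 cells had no read. Tmx1 was at 4.30 in knockout D2 cell 1 and Ddit3 at 4.13 in knockout D2 cell 6, above the rest of their groups. Hsp90b1 was at 0 in knockout D1 cell 1, where the other 5 cells had reads.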

How the results depend on the processing

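The number of the 40 genes called was 14 (knockout D1 minus wild-type D1), 9 (knockout D2 minus wild-type D2), 2 (wild-type D1 minus wild-type D2) and 11 (knockout D1 minus knockout D2). The share of all measured genes called under the same setting follows each count in parentheses. With a pseudocount of 0.1 CPM the last 3 became 15 (30.8%), 5 (9.85%) and 17 (39.2%), and with 10 CPM the 4 counts became 4 (7.38%), 0 (1.4%), 1 (0.109%) and 3 (4.65%). At shared ages the first 3 were 25 (65.6%), 20 (35.4%) and 4 (3.65%), from as few as 1 and 3 cells in D1 and 7 and 2 in D2. With the ratio of mean CPM the first was 7 (26.5%) and the third 5 (18.9%), with the ratio of summed counts the first was 7 (24.5%), and in gene-rich cells the third was 8 (13.7%). In gene-rich cells the median knockout D2 difference over the 40 was -1.22, in place of 0.54. With each cell left out in turn the counts ranged over 11 to 17, 7 to 12, 2 to 5 and 9 to 14, and the medians over 0.70 to 1.17, 0.23 to 0.87, -0.55 to -0.11 and -0.35 to 0.24.

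Some genes turned their sign. In D1 cells the knockout differences of Ddit3 and Rpn2 were -2.67 and -1.03 at shared ages, and those of Pmm1, Rpn1 and Atf4 were -0.71, -0.21 and -0.38 in summed counts. Between knockout kinds Atf4 was -1.05 in summed counts and also turned in the ratio of mean CPM. In D2 cells the knockout difference of Hsp90b1 was -1.29 in gene-rich cells, -2.18 at shared ages, -0.81 in the ratio of mean CPM and -0.65 in summed counts. There Xbp1 was -0.45 in gene-rich cells, and at shared ages Ddit3 was 0.10 and Sgta 3.15. The cause was not tested. Under the 12 alternatives other than left-out cells, Pdia3, Emc2 and Emc3 stayed past 2 log2 units in knockout D1 against wild-type D1 cells. P4hb and Sec61b did so in knockout D1 against knockout D2 cells, and each other call was lost under at least 1 alternative. Pdia3 and Emc3 were listed for their differences in these same cells, so their values describe the processing and support nothing. Dropping the filter leaves each difference as it was, and the Ensembl table holds the same counts of the ER genes. Those alternatives could hardly end a call. At shared ages the knockout D1 group was 1 cell against wild-type D1. No paired analysis was possible because replicate numbers follow the order of samples and pair none, and no result comes from a test. Few cells per group, of unnamed animals, limit all values. The pseudocount draws in differences of genes at a few CPM. Some differences were larger over cells than in summed counts, as for Sec63 in D2 cells (2.37 and 0.37). That of Sec63 was 1.53 in gene-rich cells and 3.50 at shared ages, and the part of cells without a read in it was not tested.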
